A study of Mus musculus with 24 samples.

Results

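The enzymes and the chaperone that turn procollagen chains into a crosslinked matrix were followed as 9 genes, chosen by name: the lysyl oxidases Lox, Loxl1, Loxl2 and Loxl3, the lysyl hydroxylases Plod1 and Plod2, the catalytic subunits of prolyl 4-hydroxylase P4ha1 and P4ha2, and the collagen chaperone Serpinh1 (Hsp47). All 9 symbols were found among the 23283 genes counted. RNA came from 24 mouse libraries in 6 groups, each library made from cytosolic RNA of 1000 cells in a well. Bulk mouse embryonic fibroblasts (MEF, 4 libraries) were untreated and grown in 10% serum; the labels call them unsorted and slow cycling, although the protocol given for every library has cells sorted. Fast and slow cycling MEF (4 libraries each) had both been induced with 2 µg/ml doxycycline to express the Yamanaka factors for 6 days, in embryonic stem cell medium with 15% serum and 1000 U/ml of LIF, and were separated after 48 hours by dilution of the division dye CFSE. Established, factor-independent induced pluripotent stem cells (iPS, 4 libraries) grew in that medium without doxycycline and were sorted for an Oct4:GFP reporter. Granulocyte monocyte progenitors (GMP), blood progenitors of neutrophils and monocytes, were grown in serum-free medium with mSCF, mIL3, Flt3L and mTPO and sorted after 24 hours of CFSE dilution into 5 fast and 3 slow cycling libraries. The sources used here state neither mouse strain nor age, nor the constructs that carry the factors and the reporter. They also do not say that replicates are independent animals or cultures, and each p-value is therefore set against a spread between libraries that could be purely technical.

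Collagen is modified while it is still in the endoplasmic reticulum. Prolyl 4-hydroxylases hydroxylate prolines, which lets the triple helix hold at body temperature, lysyl hydroxylases hydroxylate lysines that later carry sugars and crosslinks, and Serpinh1 binds the folded helix until it leaves for the Golgi. Outside the cell, lysyl oxidases oxidise lysines of collagen and elastin, and the products condense into covalent crosslinks. Fibroblasts are a main source of these proteins.

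Library totals ran from 2098846 to 18648132 counts, with the 8 GMP libraries at 4411526 or fewer. Rn45s and Lars2, gene models that collect ribosomal RNA reads, took 19.9% to 48.86% of the counts in GMP libraries and 3.049% to 11.73% in the others. The labelled cell types carried their markers. A sum over 7 GMP markers (Mpo, Elane and others) stood at 5258 to 24637 CPM (counts scaled to a common library size) in GMP libraries and at 11.1 CPM or less elsewhere, and 7 pluripotency markers summed to 1834 to 2665 CPM in iPS against at most 23.7 CPM in the other groups. The sum over 9 fibroblast markers, which include Col1a1 and Col1a2, was 20928 to 38463 CPM in bulk MEF, 38647 to 73625 CPM in slow MEF, 1913 to 4736 CPM in fast MEF, 96.9 to 351 CPM in iPS, 69.8 to 138 CPM in slow GMP and 131 to 503 CPM in fast GMP. No fibroblast marker was at 0 in every library of a MEF or iPS group, and Lum was at 0 in all GMP libraries. All 9 fibroblast markers fell in fast against slow MEF, beside 17.3% of all genes called lower. All 8 tested fell in iPS against bulk MEF, beside 23.3% of all genes. In fast against bulk MEF 6 of 9 fell, beside 18.4% of all genes called lower, and Dcn (0.43 on the log2 scale), Lum (0.05) and Pdgfra (-0.66) did not pass. In slow against bulk MEF 5 of 9 rose, beside 5.51% of all genes called higher. Fast MEF also held 8299 to 13646 CPM of 6 keratinocyte and epithelial markers, against 35.9 to 565 CPM in slow MEF. Most of that fast MEF sum was Krt14 (mean 9869 CPM) and Krt8 (1690 CPM). Cdh1 (190 CPM) and Epcam (25.2 CPM) added less. Krt18 was at 13.9 CPM in fast MEF against 19.1 CPM in bulk MEF, and Krt5 was at 0.593 CPM in fast MEF. A sum over 7 macrophage markers was 187 to 299 CPM in bulk MEF, 2.5 to 119 CPM in slow MEF, 5.01 to 30.4 CPM in fast MEF and 16.1 to 55.5 CPM in iPS. Of these 7 markers, 5 of 6 tested fell in fast against bulk MEF and 4 of 5 in iPS against bulk MEF. Of all genes, 18.4% and 23.3% were called lower there. C1qa, C1qb and C1qc fell in both. Cd68 went the other way in iPS, at 34.7 CPM against 12.2 CPM in bulk MEF (1.46 on the log2 scale, not called). Against fast MEF it rose in iPS (1.79). The other 6 markers were below 1 CPM in every iPS library, so the iPS sum is almost all Cd68. The part of these cell types in the results below was not tested, and in such bulk samples fewer cells of a type and less RNA per cell cannot be told apart.

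All 9 genes had lower means in fast cycling MEF, iPS and both GMP groups than in bulk and slow cycling MEF. Libraries overlapped, however, for Plod2 between slow MEF and each of fast MEF, iPS and fast GMP. For Plod1 they overlapped between fast GMP and both bulk and slow MEF. In iPS all 9 fell against bulk MEF, where edgeR's quasi-likelihood test (Benjamini-Hochberg adjusted p under 0.05) called 47.4% of 11736 genes, 24.1% higher and 23.3% lower. All 9 fell as well in fast against bulk MEF, beside 34.9% of 11335 genes called, 16.5% higher and 18.4% lower. In fast against slow MEF 8 of 9 fell, beside 31.7% of 11742 genes called, 14.4% higher and 17.3% lower. Slow MEF differed from bulk MEF in 1 of 9 genes, Loxl2, which fell, beside 10.5% of 11253 genes called, 5.51% higher and 4.99% lower. From fast MEF to iPS 5 of 9 fell, beside 38.4% of 11882 genes called, 18.8% higher and 19.7% lower. With all 24 libraries in 1 fit calls were lost in fast against slow MEF for Loxl1, Loxl3 and Plod1 (adjusted p = 0.07, 0.129 and 0.113). They were also lost in fast against bulk MEF for Loxl1, Loxl3, Plod1 and Plod2 (0.0506, 0.0543, 0.176 and 0.511). The same held in iPS against fast MEF for Loxl1 and Plod1 (0.113 and 0.208) and in iPS against bulk MEF for Plod2 (0.161). Each of these values is the highest over that gene's alternatives. None of the 9 was called higher in any of these 5 comparisons by edgeR, by DESeq2 or by limma voom, or at an unadjusted edgeR p under 0.05. The median log2 fold change of the 9 genes was -5.08 for iPS against bulk MEF (0.10 over all genes tested), -3.65 for fast against bulk MEF (-0.05), -3.33 for fast against slow MEF (-0.11), -1.41 for iPS against fast MEF (0) and -0.22 for slow against bulk MEF (0.03). Comparisons that share a group share its libraries, so these medians are not independent of each other.

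**Figure D1:**
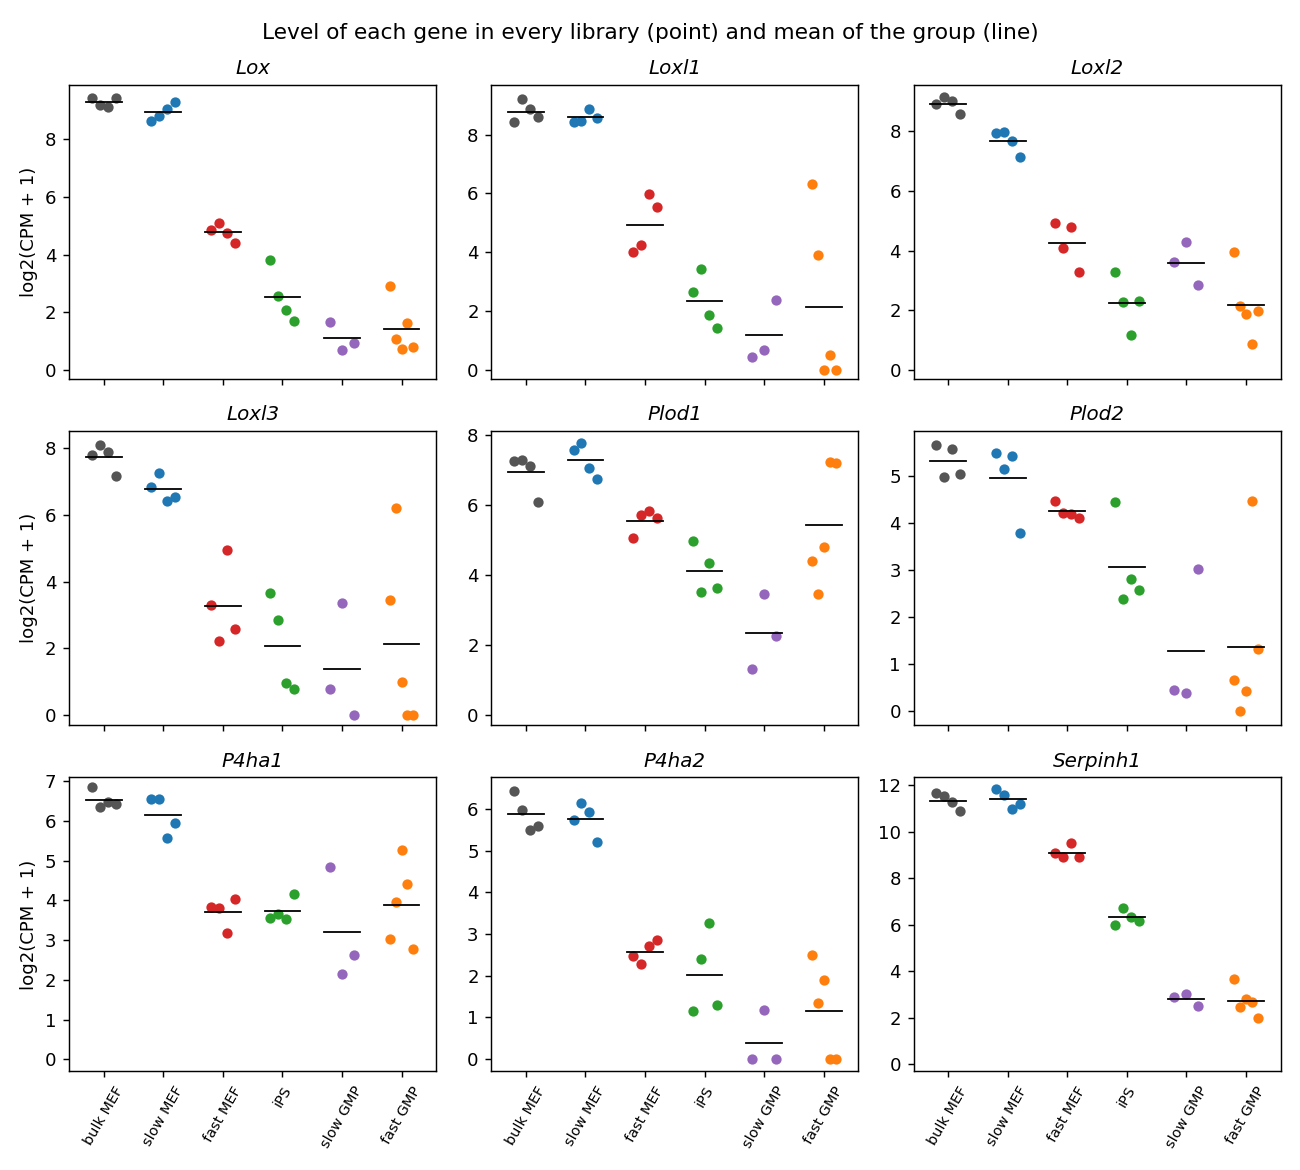
Each panel plots 1 gene as log2(CPM + 1) on the y axis, with 1 point per library and a line at the mean of the plotted values, for bulk, slow and fast MEF, iPS, slow GMP and fast GMP on the x axis; the y axes differ between panels. The mean of Serpinh1 steps down from 2621 CPM in bulk MEF to 556 CPM in fast MEF and to 79.8 CPM in iPS, while the mean of P4ha1 is 12.5 CPM in both of the latter.

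Lox, the founding member of the lysyl oxidase family, was measured in bulk MEF at 692, 579, 547 and 683 CPM in replicates 1 to 4, and in slow MEF at 392, 440, 528 and 617 CPM. Fast MEF held 28.0, 33.1, 26.2 and 20.3 CPM, and iPS 13.2, 4.95, 3.27 and 2.24 CPM. Bulk and slow MEF overlapped, and every fast MEF library lay below both. Every iPS library lay below every fast MEF library. Lox fell by 4.34 ± 0.26 (log2, SE) in fast against slow MEF (20.2-fold, edgeR adjusted p = 7.58e-06), by 6.79 ± 0.59 in iPS against bulk MEF (110-fold, adjusted p = 2.25e-05) and by 2.21 ± 0.57 in iPS against fast MEF (adjusted p = 0.0119). The iPS level rested partly on replicate 1: without it Lox stood at -7.57 against bulk MEF and -2.96 against fast MEF.

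Loxl1, a paralogue known for crosslinking elastic fibres, stood at 340, 597, 461 and 387 CPM in bulk MEF and at 347, 353, 464 and 374 CPM in slow MEF. In fast MEF it was at 15.3, 17.9, 61.6 and 45.1 CPM, and in iPS at 5.30, 9.82, 2.68 and 1.68 CPM. The fast MEF libraries split into a pair at 15.3 and 17.9 CPM and a pair at 45.1 and 61.6 CPM, all far below slow MEF. Loxl1 fell by 3.57 ± 0.48 between slow and fast MEF (11.9-fold, adjusted p = 0.000444) and by 6.57 ± 0.59 between bulk MEF and iPS (94.7-fold, adjusted p = 2.79e-05). The step from fast MEF to iPS was -2.89 ± 0.69 (adjusted p = 0.00855, within a range of 8.46e-05 to 0.113), and -3.49 without iPS replicate 2, the library with the highest Loxl1 in its group; the same library held the fold against bulk MEF down, at -7.17 without it.

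Loxl2, a paralogue that acts on collagen IV of basement membranes, was the 1 gene of the 9 that separated slow from bulk MEF. Bulk MEF held 483, 560, 515 and 381 CPM and slow MEF 245, 247, 202 and 140 CPM, with no overlap (log2 -1.19 ± 0.24, 2.28-fold, adjusted p = 0.0112). Fast MEF were lower again at 29.1, 15.9, 26.6 and 8.68 CPM, and iPS at 8.64, 3.8, 1.24 and 4.00 CPM. Its log2 fold change was -3.51 ± 0.43 from slow to fast MEF (adjusted p = 0.000261) and -6.84 ± 0.59 from bulk MEF to iPS (115-fold, adjusted p = 2.09e-05; -7.43 without iPS replicate 1). The call between iPS and fast MEF (-2.22 ± 0.65, adjusted p = 0.0216) was lost without iPS replicate 2, iPS replicate 4 or fast MEF replicate 1 (adjusted p = 0.0569, 0.0526 and 0.0568, within a range of 0.00248 to 0.0569 over all alternatives). With all 24 libraries in 1 fit the step between slow and bulk MEF kept its size (-1.23) and missed the threshold (adjusted p = 0.365, within a range of 0.000731 to 0.365).

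Loxl3, another lysyl oxidase paralogue, showed a like pattern at lower levels. Bulk MEF stood at 222, 276, 239 and 143 CPM and slow MEF at 115, 154, 85.6 and 93.3 CPM. The groups overlapped only in that bulk MEF replicate 4 lay below slow MEF replicate 2. The difference was -0.95 ± 0.29 (95% interval -1.58 to -0.32, adjusted p = 0.0584), and it passed with DESeq2 (adjusted p = 0.0251) and without bulk MEF replicate 4 (-1.12, adjusted p = 0.0442), within a range of 0.0251 to 0.769. Fast MEF held 8.90, 3.67, 30.0 and 4.98 CPM and iPS 11.7, 6.19, 0.942 and 0.721 CPM. Its log2 fold change was -3.33 ± 0.68 in fast against slow MEF (adjusted p = 0.00431) and -5.57 ± 0.88 in iPS against bulk MEF (47.5-fold, adjusted p = 0.000639). Fast MEF replicate 3 held the first of these down, at -4.36 without it, and likewise the fold against bulk MEF (-5.28 without it, -4.25 with it); iPS replicate 1 held down the second, at -6.51 without it. Fast MEF and iPS overlapped (-1.37 ± 1.0, interval -3.61 to 0.86, adjusted p = 0.31).

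Both lysyl hydroxylases had smaller folds than any of the 4 oxidases in fast against slow MEF and in iPS against bulk MEF. The same held for P4ha1 and Serpinh1, and for P4ha2 in iPS against bulk MEF only. The difference between the families was not tested. Plod1, whose product hydroxylates lysines within the helical part of collagen, stood at 153, 155, 138 and 67.3 CPM in bulk MEF, at 190, 219, 131 and 106 CPM in slow MEF, while fast MEF held 32.4, 51.3, 55.3 and 48.1 CPM and iPS 30.5, 10.3, 19.1 and 11.3 CPM. Slow and bulk MEF overlapped, and fast MEF and iPS each lay below both. Plod1 fell by 1.93 ± 0.32 from slow to fast MEF (3.81-fold, adjusted p = 0.00148), by 2.89 ± 0.46 from bulk MEF to iPS (7.43-fold, adjusted p = 0.000636) and by 1.41 ± 0.41 from fast MEF to iPS (adjusted p = 0.0199). That last call was lost when either iPS replicate 2 or iPS replicate 4 was left out (adjusted p = 0.0535 and 0.054), within a range of 0.00317 to 0.208.

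Plod2, whose product hydroxylates lysines of the telopeptides, was the member with the smallest fold in fast against slow MEF. It stood at 49.9, 30.4, 46.3 and 32 CPM in bulk MEF and at 43.7, 34.3, 42.0 and 12.9 CPM in slow MEF. Fast MEF held 21.0, 17.5, 17.4 and 16.3 CPM, a tight group, and iPS 20.8, 4.24, 6.00 and 4.96 CPM. Slow MEF replicate 4 lay below all fast MEF libraries, and the difference of -1.02 ± 0.42 did not pass (interval -1.95 to -0.09, adjusted p = 0.0895), while without that library it did (-1.30, adjusted p = 0.0153, within a range of 0.0153 to 0.652). Against bulk MEF, Plod2 fell by 1.22 ± 0.33 in fast MEF (2.33-fold, adjusted p = 0.0163, but 0.0555 without fast MEF replicate 2, within a range of 0.000939 to 0.511) and by 2.19 ± 0.57 in iPS (4.55-fold, adjusted p = 0.0097). The library iPS 1 stood apart at 20.8 CPM, and without it the difference from bulk MEF was -3.05 and that from fast MEF, -1.03 ± 0.55 with it (adjusted p = 0.169), was -1.84 (adjusted p = 0.00746, within a range of 0.00746 to 0.585).

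The prolyl hydroxylase subunits were low in fast MEF and iPS alike in their means, with overlapping libraries. P4ha1 stood at 115, 80.3, 87.6 and 84.2 CPM in bulk MEF, at 93.2, 92.8, 46.4 and 60.7 CPM in slow MEF, while fast MEF held 13.3, 13, 8.12 and 15.4 CPM and iPS 10.8, 11.7, 10.6 and 16.8 CPM. Fast MEF and iPS overlapped throughout, far below the other MEF groups. The log2 fold change of P4ha1 was -2.70 ± 0.36 from slow to fast MEF (6.52-fold, adjusted p = 0.000438) and -2.91 ± 0.32 from bulk MEF to iPS (7.52-fold, adjusted p = 8.23e-05). Between iPS and fast MEF the log2 difference was 0.0029 ± 0.38, with an interval from -0.84 to 0.85.

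P4ha2, the alternative catalytic subunit, was at 85.6, 62.3, 44.4 and 47.2 CPM in bulk MEF, at 52.5, 69.6, 59.9 and 35.9 CPM in slow MEF, while fast MEF held 4.54, 3.85, 5.53 and 6.19 CPM and iPS 1.21, 4.24, 8.68 and 1.44 CPM. The iPS libraries spread on both sides of the fast MEF values. The log2 fold change of P4ha2 was -3.58 ± 0.39 in fast against slow MEF (11.9-fold, adjusted p = 0.000134) and -3.97 ± 0.65 in iPS against bulk MEF (15.6-fold, adjusted p = 0.000788; -4.76 without iPS replicate 3). Its difference between iPS and fast MEF was -0.38 ± 0.69 (interval -1.92 to 1.17, adjusted p = 0.699).

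Serpinh1 gave the clearest order of groups. Bulk MEF stood at 3200, 2938, 2466 and 1878 CPM and slow MEF at 3656, 3036, 1995 and 2341 CPM, a difference of 0.10 ± 0.23 (interval -0.40 to 0.60, adjusted p = 0.812). Fast MEF held 540, 481, 723 and 480 CPM and iPS 63.3, 104, 80.8 and 71.3 CPM. No library of fast MEF, iPS or GMP overlapped with a group above it in the order slow or bulk MEF, fast MEF, iPS, GMP. Serpinh1 fell by 2.44 ± 0.26 from slow to fast MEF (5.42-fold, adjusted p = 0.000117), by 2.83 ± 0.25 from fast MEF to iPS (7.09-fold, adjusted p = 4.02e-05) and by 5.08 ± 0.27 from bulk MEF to iPS (33.8-fold, adjusted p = 2.7e-06). Fast MEF therefore kept 21.2% of the bulk MEF mean of Serpinh1 and iPS 3.05%. For comparison, fast MEF kept 4.30% of the bulk MEF mean of Lox, 7.83% of Loxl1, 4.14% of Loxl2, 5.41% of Loxl3, 36.4% of Plod1, 45.6% of Plod2, 13.6% of P4ha1 and 8.39% of P4ha2.

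**Figure D2:**
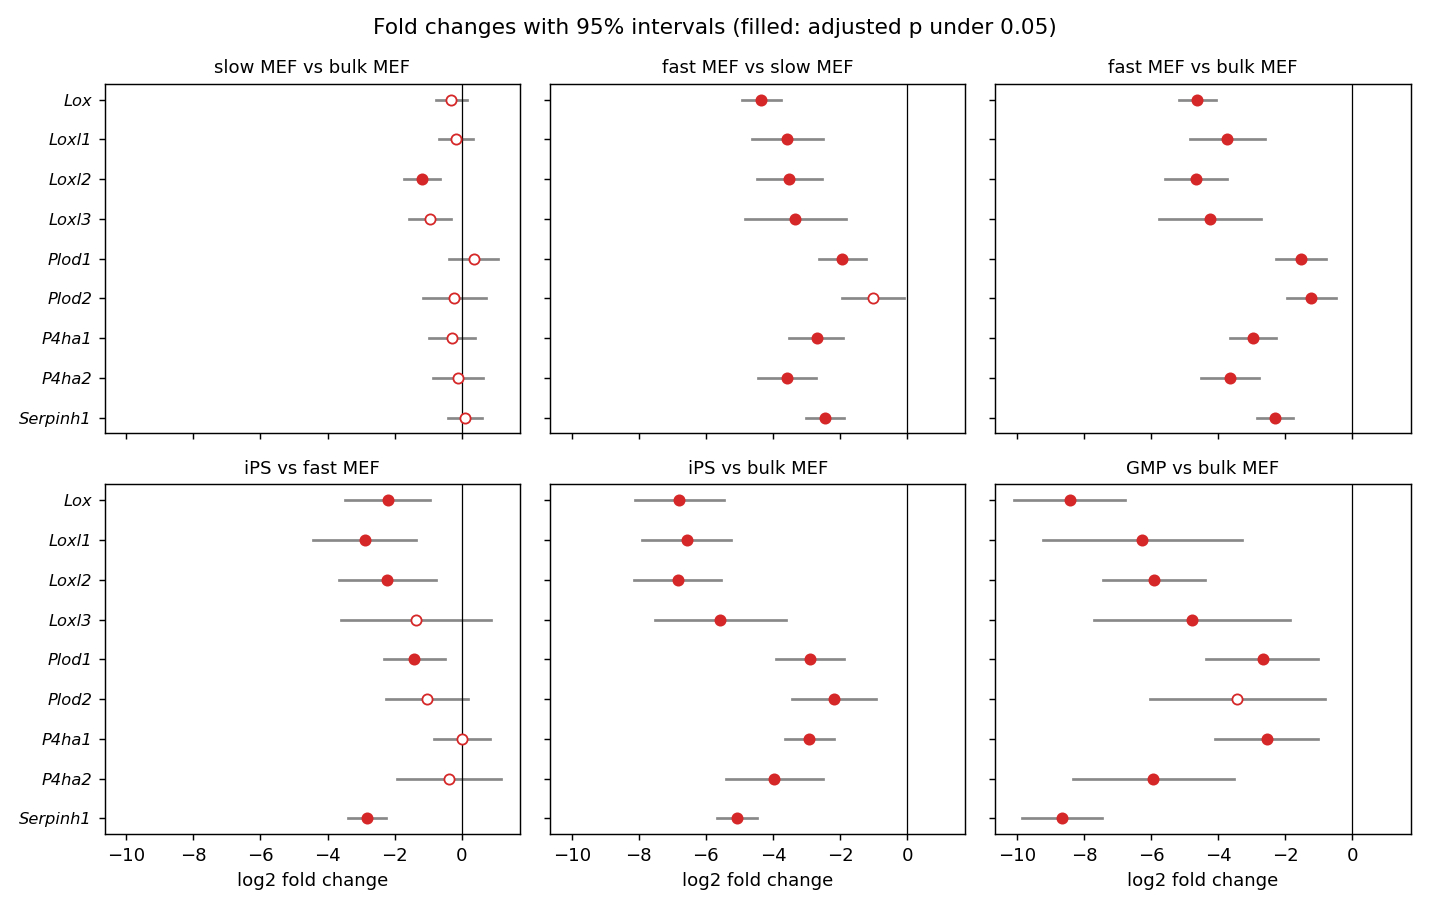
Points give the log2 fold change (x axis) of each of the 9 genes (y axis) in 6 comparisons, with bars for 95% intervals of the edgeR fits and filled points for adjusted p under 0.05. Slow against bulk MEF has 1 filled point (Loxl2, -1.19), fast against bulk MEF has 9, and in iPS against bulk MEF the estimates run from -6.84 (Loxl2) to -2.19 (Plod2).

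Levels of different genes were compared per kilobase of transcript, with the longest protein-coding transcript of GENCODE M21 as the length. In bulk MEF Serpinh1 led at 1152 ± 255 CPM per kb (SD, n = 4), followed by Loxl1 (135 ± 34.0), Lox (132 ± 15.5), Loxl2 (91.2 ± 14.3), Loxl3 (53.7 ± 13.6), Plod1 (39.6 ± 12.8), P4ha2 (26.5 ± 8.34), P4ha1 (22.7 ± 3.84) and Plod2 (10.8 ± 2.71). Among neighbours in this order, the ranges of 1 SD around the mean overlapped for Loxl1 and Lox, for Loxl3 and Plod1, for Plod1 and P4ha2 and for P4ha2 and P4ha1. In fast MEF the order below Serpinh1 (244 ± 50.4) was another one: Plod1 came next at 14.4 ± 3.09 CPM per kb, then Loxl1 (10.6 ± 6.77), Lox (5.68 ± 1.11), Plod2 (4.93 ± 0.55), Loxl2 (3.78 ± 1.79), P4ha1 (3.08 ± 0.766), Loxl3 (2.90 ± 3.00) and P4ha2 (2.22 ± 0.458). Every pair of neighbours below Serpinh1 overlapped within 1 SD there. In iPS Serpinh1 was at 35.1 ± 7.72 CPM per kb and Plod1 at 5.49 ± 2.87, and the other 7 genes lay between 0.832 (Loxl2) and 3.08 CPM per kb (P4ha1).

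The mix of enzymes inside a library needs no scaling between libraries. Counts of the 4 lysyl oxidases summed to 11.3 ± 3.36 per count of Plod1 and Plod2 in bulk MEF (SD, n = 4, 8.56 to 16.1), 6.77 ± 2.67 in slow MEF (4.70 to 10.3), 1.44 ± 0.417 in fast MEF (1.03 to 1.99) and 0.828 ± 0.608 in iPS (0.323 to 1.70). All bulk and slow MEF libraries lay above every fast MEF and iPS library in this ratio, and fast MEF and iPS overlapped. The ratio was formed after the values were seen and was not tested. Serpinh1 made up 55.1 ± 3.8% of the counts of the 9 genes in bulk MEF, 63.7 ± 6.33% in slow MEF, 75.9 ± 1.51% in fast MEF and 56.6 ± 12.4% in iPS. As a share of all counts the 9 genes went from 0.478 ± 0.0762% in bulk MEF and 0.481 ± 0.0847% in slow MEF to 0.0906 ± 0.0147% in fast MEF and 0.0173 ± 0.00379% in iPS.

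Ratios of paralogues within a library asked whether 1 enzyme of a pair replaced the other. Plod2 had 32.6, 19.6, 33.5 and 47.6 counts per 100 of Plod1 in bulk MEF, 22.9, 15.6, 32 and 12.2 in slow MEF, 64.7, 34.2, 31.6 and 33.9 in fast MEF and 68.2, 41.0, 31.3 and 44.0 in iPS. The log2 ratio was higher in fast than in slow MEF by 1.02, from -2.37 ± 0.61 to -1.35 ± 0.48 (SD, n = 4 each, exact permutation p = 0.0571, adjusted p = 0.429 over 15 tests). P4ha2 to P4ha1 was lower in fast than in slow MEF by 0.88 (-1.29 ± 0.52 and -0.41 ± 0.55, exact permutation p = 0.0857, adjusted p = 0.429), and in iPS it spread from 8.57 to 81.8 counts per 100. For Loxl1 to Lox the fast MEF libraries fell into a pair at 54.5 and 54.1 and a pair at 235 and 222 counts per 100, and no comparison had an exact permutation p below 0.343. None of the 15 ratio tests passed, before or after adjustment. The smallest two-sided p that 4 against 4 libraries allow is 0.0286, so these tests do not show that the paralogues moved alike.

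**Figure D3:**
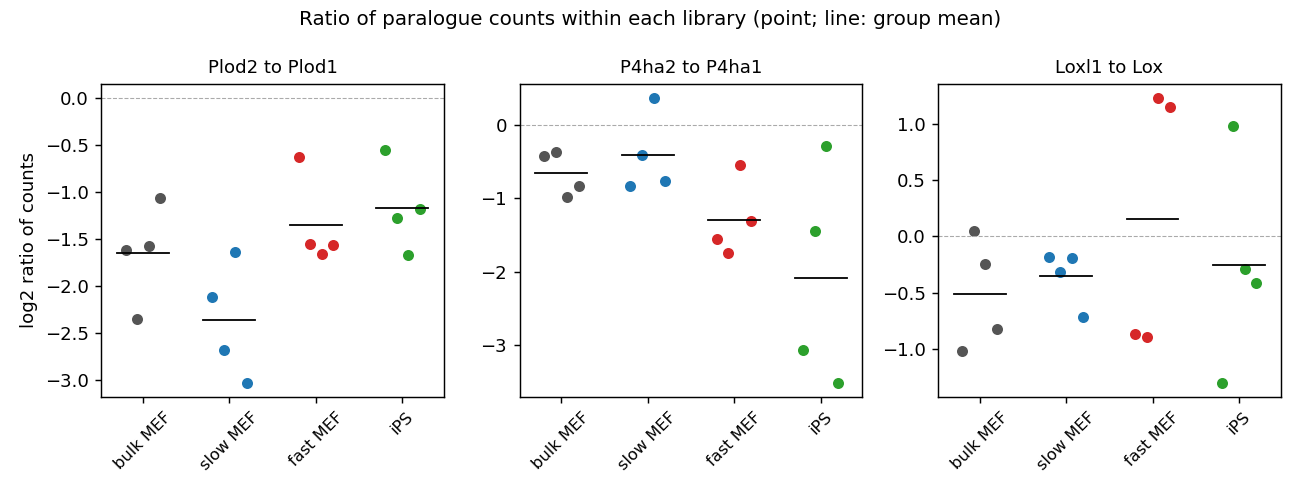
The y axis is the log2 ratio of counts of 2 paralogues within a library (Plod2 to Plod1, P4ha2 to P4ha1, Loxl1 to Lox, pseudocount 0.5), with 1 point per library and a line at the group mean for bulk, slow and fast MEF and iPS. The mean ratio of Plod2 to Plod1 is -2.37 in slow and -1.35 in fast MEF, and Loxl1 to Lox splits the fast MEF libraries, with replicates 3 and 4 at 1.23 and 1.15 and the other two below 0.

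Stretches upstream of the gene start were read for the 4 members matched in RefSeq's promoter table for GRCm38.p6, all of which fell in fast against bulk MEF, to show what sequence lies there. They are the 250 bases before the start of P4ha1 (chr10:59323046-59323295, plus strand), P4ha2 (chr11:54100674-54100923, plus strand), Plod1 (chr4:147936777-147937026, minus strand) and Serpinh1 (chr7:99353240-99353489, minus strand), written 5′ to 3′ along the gene. Capitals mark ACGTG on either strand, a form of the core of the hypoxia response element, to which hypoxia-inducible factors bind. That core can also be GCGTG, which was neither searched nor marked. No stretch was read for Lox, Loxl1, Loxl2, Loxl3 or Plod2.
P4ha1: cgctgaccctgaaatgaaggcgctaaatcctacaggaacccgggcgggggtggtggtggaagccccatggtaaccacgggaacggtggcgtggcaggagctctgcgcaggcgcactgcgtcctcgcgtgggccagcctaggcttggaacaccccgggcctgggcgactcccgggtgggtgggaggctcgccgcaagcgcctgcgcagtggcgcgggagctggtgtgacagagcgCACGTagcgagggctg
P4ha2: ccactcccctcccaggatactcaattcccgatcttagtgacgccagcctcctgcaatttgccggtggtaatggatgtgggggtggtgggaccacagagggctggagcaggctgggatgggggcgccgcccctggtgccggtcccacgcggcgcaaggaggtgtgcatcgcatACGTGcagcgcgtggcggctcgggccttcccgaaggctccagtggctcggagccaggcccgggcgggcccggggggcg
Plod1: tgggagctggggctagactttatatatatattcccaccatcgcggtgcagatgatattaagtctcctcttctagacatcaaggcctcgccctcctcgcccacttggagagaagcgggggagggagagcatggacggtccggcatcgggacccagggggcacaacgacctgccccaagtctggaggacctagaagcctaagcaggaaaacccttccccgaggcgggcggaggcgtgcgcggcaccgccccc
Serpinh1: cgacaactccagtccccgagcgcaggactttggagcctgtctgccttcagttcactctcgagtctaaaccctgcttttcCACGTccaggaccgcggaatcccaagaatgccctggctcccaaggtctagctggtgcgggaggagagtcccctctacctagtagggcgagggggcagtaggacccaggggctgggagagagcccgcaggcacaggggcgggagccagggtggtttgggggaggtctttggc
P4ha1, P4ha2 and Serpinh1 each held 1 such match, 16, 78 and 171 bases before the start, and Plod1 held none. ACGTG was found on either strand in 16.6% of 32851 promoter windows of that length. A GC box (GGGCGG, either strand) occurred in all 4 windows and in 32.7% of all windows, CCAAT (either strand) in none of the 4 and in 33.8% of all, and TATAAA (either strand) in Plod1 alone and in 12.4% of all. The 4 windows had 61.6% to 70% G and C, against a median of 52.4%. No matches overlapped in a window, and a match describes the sequence, not a site that was shown to be used.

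Genes of the hypoxia response, a list that shares the transcription factor with the motif above, were called in both directions. In fast against slow MEF 1 of 17 tested rose and 5 fell (median -0.31), beside 14.4% and 17.3% of all genes, with the angiogenic factor Vegfa at -2.91 ± 0.31, the peptide hormone gene Adm at -4.41 ± 0.84, Hif1a itself at -1.98 ± 0.27, and the glucose transporter Slc2a1, which rose, at 1.13 ± 0.25. In iPS against bulk MEF 5 of 17 rose and 3 fell (median -0.39), beside 24.1% and 23.3% of all genes, among the former the kinase Pdk1 (3.58 ± 0.71), the histone demethylase Kdm3a (3.29 ± 0.49) and Slc2a1 (2.12 ± 0.28), and among the latter Ndrg1 (-2.96 ± 0.37). Against fast MEF, 7 of 16 rose in iPS and 3 fell (median 1.12), beside 18.8% and 19.7% of all genes, while P4ha1 was at 0.0029 and P4ha2 at -0.38. In slow against bulk MEF 2 of 16 rose and 1 fell, beside 5.51% and 4.99% of all genes. Hif1a was at 1.44 ± 0.28 there and Ldha, which makes lactate dehydrogenase, at -1.15 ± 0.19.

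Further genes of collagen modification formed a list of 17, all matched: other hydroxylases and their partners P4hb and Crtap, prolyl isomerases, glycosyltransferases and another lysyl oxidase, Loxl4. Between fast and slow MEF 10 of 15 tested fell and none passed the test as higher (median -1.44), beside 17.3% of all genes called lower. The 5 that did not pass were Loxl4 (0.46 ± 0.45, 27.1 against 17.8 CPM), Leprel4 (0.60 ± 0.40), Leprel1 (-0.02 ± 0.74), Glt25d1 (-0.21 ± 0.26) and Fkbp10 (-0.29 ± 0.30). Loxl4 was at -0.03 ± 0.50 in fast against bulk MEF as well, and fell in iPS, by 2.66 ± 0.59 against bulk MEF. Leprel2, a prolyl 3-hydroxylase family gene, was at -4.08 ± 0.56, P4ha3, another prolyl 4-hydroxylase catalytic subunit, fell from 851 to 65.1 CPM (-3.81 ± 0.55), Lepre1, a prolyl 3-hydroxylase, was at -2.68 ± 0.43 and Fkbp9 at -1.98 ± 0.28. In iPS against bulk MEF 13 of 15 partners fell and none rose (median -2.34), beside 23.3% of all genes called lower. The largest falls were those of P4ha3 (-6.70 ± 0.35), Leprel2 (-5.23 ± 0.60), Fkbp10, a collagen-binding isomerase (-5.19 ± 0.49), and Leprel4 (-4.62 ± 0.31). Slow and bulk MEF differed in both directions, in 3 higher and 3 lower of 15, beside 5.51% and 4.99% of all genes. P4ha3 rose from 342 to 851 CPM (1.35 ± 0.28, edgeR adjusted p = 0.013) and Fkbp14 rose (1.25 ± 0.35). Leprel4 (-1.74 ± 0.32), Crtap, a partner of prolyl 3-hydroxylase (-1.16 ± 0.32), and Glt25d1, a collagen galactosyltransferase (-1.09 ± 0.26), fell. P4ha1 and P4ha2 in that comparison were at -0.29 ± 0.31 and -0.11 ± 0.34.

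Genes of fibrillar collagen and elastic fibres, called substrates here for short, fell in fast MEF and iPS. A few of them rose in slow against bulk MEF. Of 11 genes of fibrillar collagen and elastic fibres, all 10 tested fell in fast against slow MEF (median -4.37), beside 17.3% of all genes. All 10 tested also fell in iPS against bulk MEF (median -6.89), beside 23.3% of all genes. The gene not tested in either was Eln, elastin, while Fbn1, Efemp2 and Fbln5 are other elastic fibre proteins. Between slow and fast MEF, Col1a1, the main chain of collagen I, fell from 33400 to 1340 CPM (-4.75 ± 0.38) and Col3a1 from 1990 to 56.4 CPM (-5.27 ± 0.45). In slow against bulk MEF 3 of 11 rose and 1 fell (median 0.65), beside 5.51% and 4.99% of all genes. Col3a1 rose by 2.88 ± 0.40, Col1a2 by 1.33 ± 0.32 and Col1a1 by 1.14 ± 0.26, while Fbln5, an elastic fibre protein, fell (-1.10 ± 0.21). Of the 9 fibroblast markers 5 rose in that comparison: Col1a1 and Col1a2, already counted among the substrates, and Pdgfra, Dcn and Lum. Of the 9 crosslinking and hydroxylation genes Loxl2 fell there and 8 did not pass; whether their fold differs from that of the substrates was not tested.

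Chaperones of the endoplasmic reticulum that serve many proteins were set beside Serpinh1. Of 14 such genes 5 fell in fast against slow MEF and none rose (median -0.66, lowest -1.80 for Herpud1), beside 17.3% of all genes called lower. Among the 5 were the disulfide isomerases Pdia3 (-1.26 ± 0.24), Pdia6 (-1.17 ± 0.24) and Pdia4 (-1.12 ± 0.36). In iPS against bulk MEF 8 of 14 fell (median -1.21), beside 23.3% of all genes called lower. The largest falls were those of Dnajc3 (-2.48 ± 0.47), Herpud1 (-2.46 ± 0.60), Pdia3 (-1.93 ± 0.21) and Calr, calreticulin (-1.89 ± 0.27). The smallest of the 8 was that of Pdia6 (-0.82 ± 0.24). Serpinh1 stood at -2.44 and -5.08 in these comparisons, below the lowest of the 14 in each.

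**Figure D4:**
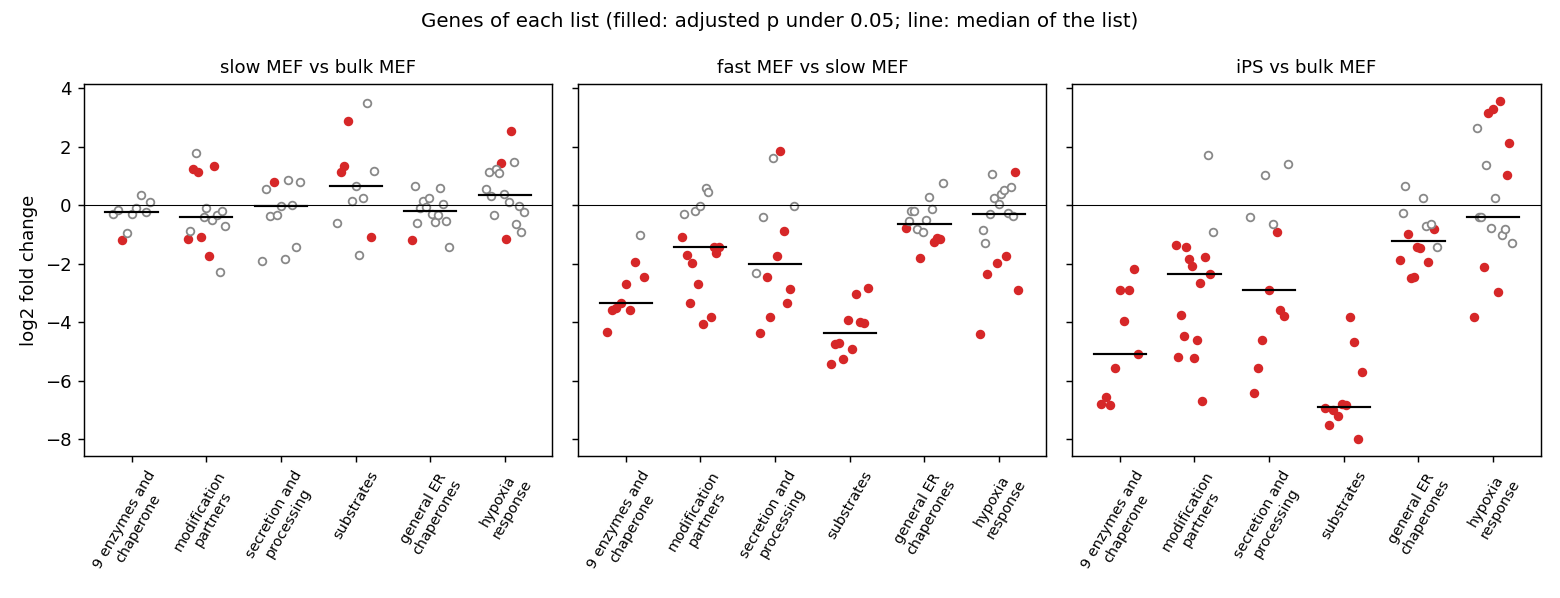
Points are the log2 fold changes (y axis) of the tested genes of 6 lists (x axis) in slow against bulk MEF, fast against slow MEF and iPS against bulk MEF, filled where the edgeR adjusted p was under 0.05, with a line at the list's median. For fast against slow MEF the medians are -3.33 for the 9 genes, -1.44 for their partners, -4.37 for substrates, -0.66 for general chaperones and -0.31 for the hypoxia response.

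In GMP most of the 9 genes were below 10 CPM in most libraries, but only Lox and P4ha2 were so in all of them. Plod1 reached 150 CPM, Loxl1 79.5 CPM, Loxl3 73.3 CPM and P4ha1 37.7 CPM in single fast GMP libraries. Serpinh1 was counted 4 to 41 times per library, at 6.54, 7.13 and 4.72 CPM in slow GMP and 11.8, 4.58, 6.06, 5.39 and 2.95 CPM in fast GMP, against at least 1878 CPM in bulk MEF (log2 -8.65 ± 0.56, 401-fold, adjusted p = 1.58e-07). Lox stood at 0.62 to 6.60 CPM over the 8 GMP libraries (-8.42 ± 0.78, adjusted p = 5.42e-06). Against bulk MEF 8 of 9 genes were lower over both GMP groups, beside 21.3% of 12170 genes called, 11.5% higher and 9.79% lower, and none was higher by edgeR, DESeq2 or limma voom, or at an unadjusted edgeR p under 0.05. Plod2 was at -3.43 ± 1.22 (adjusted p = 0.0572), and at -4.99 without fast GMP replicate 4 (adjusted p = 0.00418, within a range of 0.000198 to 0.12). In the same comparison 6 of 14 modification partners tested fell and none passed as higher (median -2.38), led by Leprel4 (-9.80 ± 1.27), 10 of 11 substrates fell (median -6.62), and of 14 general chaperones 1 rose and none fell (median 0.09). Single libraries set several of the members' folds: Loxl1 (-6.26) was at -7.34 without fast GMP replicate 1 and -7.13 without slow GMP replicate 3, Loxl3 (-4.79) at -6.07 without fast GMP replicate 2 and -6.36 without slow GMP replicate 2, P4ha2 (-5.94) at -8.19 without slow GMP replicate 2 and P4ha1 (-2.56) at -3.39 without slow GMP replicate 1. Calls were lost for P4ha1 without bulk MEF replicate 1 (adjusted p = 0.0614, range 0.000537 to 0.0614), for Plod1 without bulk MEF replicate 1, 2 or 3 or slow GMP replicate 1 or 3 (0.0513 to 0.066, range 0.00126 to 0.066) and for Loxl3 without bulk MEF replicate 2 or 3 or slow GMP replicate 1 or 3 (0.0512 to 0.0566, range 0.00016 to 0.0566).

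Fast and slow cycling GMP did not differ past the threshold in any of the 6 members that could be tested, beside 0% of 10057 genes called by edgeR. Lox, Plod2 and P4ha2 were too low to be tested. At an unadjusted p under 0.05 there were 1 of the 6 members and 742 of all genes. That member was Plod1, at 20.1, 9.92, 26.9, 150 and 147 CPM in fast GMP and 1.45, 9.92 and 3.78 CPM in slow GMP. Fast GMP replicates 4 and 5 were high, and replicate 2 of both groups had the same level. The difference was 3.85 ± 1.34 on the log2 scale (edgeR adjusted p = 0.662). DESeq2 called it (adjusted p = 0.0452), limma voom did not, and a fit over all 24 libraries did (adjusted p = 0.0258, within a range of 0.0258 to 1). P4ha1 stood at 5.90 to 37.7 CPM in fast and 3.41 to 27.6 CPM in slow GMP (0.47 ± 1.14, interval -2.01 to 2.94), around the values of fast MEF and iPS. Fast GMP replicates 4 and 5 were also the libraries with the fewest genes counted, 10494 and 9380, while the other GMP libraries had 11556 to 18402; its part in the Plod1 values was not tested.

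Genes whose pattern over the 24 libraries was most like a member were found by Pearson correlation of log2 CPM among 8438 genes with a mean of at least 10 CPM. The values describe these libraries, in which the 6 groups and their depth are shared by all genes, and carry no test. Lox was closest to Col5a2 (0.986), Thbs1 (0.983) and Thbs2 (0.978), and Serpinh1 to Cyr61 (0.984), Rhoc (0.977) and Cald1 (0.977). Loxl1 was closest to Sorcs2 (0.968), Loxl2 to Lrrc32 (0.955), Fbln5 (0.950) and Acta2 (0.941), and Loxl3 to Fam20a (0.930). For the hydroxylases the closest genes were Kdelr3 for P4ha2 (0.936), Tnfrsf12a for Plod2 (0.918), Tnfrsf23 for P4ha1 (0.899) and Mtmr6 for Plod1 (0.890). Among the 9 genes themselves the correlations ran from 0.451 to 0.946, with a median of 0.767.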

How the data were processed

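The values are read counts as the authors deposited them, raw whole numbers for 23283 gene symbols in 24 libraries. The submitters' processing notes name CASAVA 1.8.2, TopHat2 2.0.4, HTSeq and mouse build mm9. Settings, strand and annotation were not stated in what was used here, so reads of antisense or overlapping genes cannot be told apart. No 2 libraries of a group agreed within sampling noise (37 pairs, chi-square per degree of freedom at least 48.7).

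The members and gene lists were chosen with earlier results of these data known. Each comparison was a robust quasi-likelihood fit in edgeR 4.0.16 (R 4.3.3; TMM, filterByExpr, group only) to the libraries of its own groups, two-sided, with Benjamini-Hochberg adjustment over all genes tested and a threshold of 0.05. The standard error is the fold change divided by the root of F, and 95% intervals follow from it. CPM values used TMM factors over all 24 libraries. Lengths came from GENCODE M21 (GRCm38), another build than the authors'. Ratios of paralogues used a pseudocount of 0.5 and exact permutation tests (scipy 1.17.1). Named list genes were those past the threshold with at least 20 CPM in the higher group, up to 4 by fold in the leading direction and 2 in the other; genes of like pattern were the 3 closest per member. List members named as not passing, and the markers named, were chosen after their values were seen. The lists held 129 entries, all matched by symbol or synonym. The fits were tested on simulated counts.

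Alternatives were DESeq2 size factors in edgeR, no filter or a filter at 10 CPM, DESeq2 1.42.0, limma voom 3.58.1 with quality weights, a block for the replicate number, 1 fit to all 24 libraries, thinning to 2098846 counts, leaving out Rn45s and Lars2, each library left out in turn and, for ratios, a pseudocount of 2. Depth limits precision in GMP, and counting error takes no account of PCR copies.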

Additional observations from a re-analysis of the deposited data

Results flagged for a closer look

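Of 45 combinations of a gene and a group of 4 or 5 libraries, 7 held 1 library far from the others by Dixon's test on unlogged CPM. Chance alone does so in about 1 of 20 for normally distributed values, a rate that unlogged CPM need not follow. In all 7 that library was the highest of its group. Of these, 5 were in fast GMP: replicate 1 was highest for Lox (6.60 CPM, others 0.673 to 2.07), Loxl1 (79.5 CPM, others 0 to 14.1) and Loxl2 (14.3 CPM, others 0.83 to 3.43), replicate 2 for Loxl3 (73.3 CPM, others 0 to 10.0) and replicate 4 for Plod2 (21.1 CPM, others 0 to 1.48). Fast GMP replicate 1 also had counts in 18402 genes, more than any other library. In iPS, replicate 1 was highest for Plod2 (20.8 CPM, others 4.24 to 6.00) and replicate 4 for P4ha1 (16.8 CPM, others 10.6 to 11.7).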

How the results depend on the processing

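The count of members called was 8 in fast against slow MEF and 9 in fast against bulk MEF. It was 5 in each with all 24 libraries in 1 fit, which pools the spread over all groups, GMP included. That fit called 1246 and 1513 of 15813 genes in these comparisons. In it Loxl1, Loxl3 and Plod1 (and, against bulk MEF, Plod2) kept their direction and missed the threshold, as did Loxl1 and Plod1 in iPS against fast MEF. In iPS against fast MEF the count was 5, and 3 in that fit, beside 1675 of 15813 genes called. Leaving out 1 library gave 3 to 6. Slow against bulk MEF had 1, with 2 by DESeq2 (1976 of 11253 genes called), 0 in the fit of all 24 (56 of 15813) and 1 to 2 with a library left out. Fast against slow GMP had 0, and 1 by DESeq2 (97 of 10057 genes called) and in the fit of all 24 (385 of 15813). GMP against bulk MEF had 8, and 6 to 9 with a library left out. The call of Plod2 in iPS against bulk MEF (9 members) was lost in the fit of all 24 (adjusted p = 0.161, range 0.000419 to 0.161). With a pseudocount of 2 no ratio test passed and none changed direction. With a library left out, where ratios were not tested, 4 differences crossed 0: Loxl1 to Lox reached -0.15 in iPS against bulk MEF (0.26) and -0.01 in slow against bulk MEF (0.16), P4ha2 to P4ha1 -0.02 in slow against bulk MEF (0.24) and Plod2 to Plod1 -0.03 in iPS against fast MEF (0.18).

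The replicate numbers did not pair the libraries: deviations of same-numbered libraries correlated between -0.06 and 0.079, and in no comparison was every library closest to its own number. With the number as a replicate block the counts of members were as without it in 6 comparisons, and 9 in GMP against bulk MEF, where Plod2 passed (-5.12, adjusted p = 0.0183).

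Of the differences that changed sign, each was uncalled in its main fit and under the alternative. In slow against bulk MEF P4ha2 (-0.11) was at 0.03 with thinned counts, 0.10 without bulk MEF replicate 1 and 0.05 without slow MEF replicate 4, Plod2 (-0.22) at 0.04 without slow MEF replicate 4, and Serpinh1 (0.10) at -0.04 without bulk MEF replicate 4 and -0.07 without slow MEF replicate 1; with a library left out they ranged from -0.25 to 0.10, from -0.39 to 0.04 and from -0.07 to 0.23. In iPS against fast MEF P4ha1 (0.0029) was at -0.04 with the stricter filter, -0.07 by limma voom, -0.0012 in the fit of all 24, -0.0023 without Rn45s and Lars2, -0.18 without iPS replicate 4 and -0.13 without fast MEF replicate 3 (-0.18 to 0.11 with a library left out). In fast against slow GMP Serpinh1 (0.05) was at -0.01 with no filter, -0.10 by limma voom, -0.12 without slow GMP replicate 3 and -0.44 without fast GMP replicate 1 (-0.44 to 0.20 with a library left out), and P4ha1 (0.47) at -0.03 without fast GMP replicate 3 (-0.03 to 2.03).

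Counts over all genes changed by over 1.5 times in the fit of all 24: 1246 against 3726 in fast against slow MEF, 3170 against 5566 in iPS against bulk MEF, 56 against 1181 in slow against bulk MEF, 1513 against 3958 in fast against bulk MEF, 1675 against 4568 in iPS against fast MEF, 385 against 0 in fast against slow GMP and 5040 against 2594 in GMP against bulk MEF. The fit of all 24 tested 15813 genes and the main fits 10057 to 12170. DESeq2 gave 1976 in slow against bulk MEF and 97 in fast against slow GMP, limma voom 4668 in GMP against bulk MEF, and leaving out bulk MEF replicate 4 or slow MEF replicate 3 gave 762 and 759 in slow against bulk MEF. Leaving out a bulk MEF library gave 1450 to 1493 in GMP against bulk MEF. The cause of these changes was not tested.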

Other observations

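Genes that export procollagen and trim its ends were described as a further list of 15, all matched. In fast against slow MEF 7 of 12 tested fell and 1 rose (median -2.02, and -0.11 over all genes), beside 17.3% and 14.4% of all genes. Adamts2, which removes the N-propeptide, fell by 4.36 ± 0.66 on the log2 scale, Creb3l1, a membrane-bound transcription factor of secretory cells, fell by 3.81 ± 0.45, Sec24d, a COPII coat protein, fell by 3.34 ± 0.38, and Bmp1, the C-proteinase that also activates lysyl oxidase, fell by 2.45 ± 0.28. Pcolce2, an enhancer of C-propeptide removal, rose from 28.3 to 113 CPM (1.85 ± 0.51, edgeR adjusted p = 0.0185). In iPS against bulk MEF 7 of 11 fell and none rose (median -2.91), beside 23.3% of all genes called lower, led by Adamts2 (-6.43 ± 0.99) and Bmp1 (-5.57 ± 0.84). In slow against bulk MEF 1 of 11 rose, Creb3l1 (0.78 ± 0.22, edgeR adjusted p = 0.0472), and none fell, beside 5.51% and 4.99% of all genes. Against fast MEF, Adamts14, another N-proteinase gene, rose in iPS from 2.26 to 30.9 CPM (3.74 ± 1.13, adjusted p = 0.0246).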
